A study of Mus musculus with 2 samples.

Results

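Interferon-stimulated genes are the genes that a cell switches on when it senses interferon, and 39 of them were followed here. The members are a fixed list of symbols, chosen with earlier results of these data known. Each was matched to the row of the deposited count table with that name, and all 39 were found among 46095 genes. The table holds 2 libraries of mouse acute myeloid leukaemia cells. These are leukaemia-initiating cells from the bone marrow of C57BL/6 mice aged 8 weeks, sorted for Mac1 and c-Kit. One library carries the genotype label wild type and a title ending in Scr. The other carries the label P2x7-KO (loss of an ATP-gated ion channel encoded by P2rx7) and a title ending in KD. With 1 library per group there is no replicate check, no test and no p-value. The number of mice behind each library, the cells that carried the P2x7 change and the way the leukaemia was started are not stated in the labels.

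Interferons are secreted proteins that bind paired receptor chains on the cell surface. Type I interferons signal through IFNAR1 and IFNAR2 and the kinases JAK1 and TYK2 to a complex that contains STAT2 and IRF9 and binds a DNA element called the ISRE. Interferon gamma signals through its own receptor to a second element, the GAS. The induced proteins sense foreign nucleic acid, block translation, degrade RNA or nucleotides, modify other proteins, or attack the membranes around intracellular microbes. Blood cells also hold a low level of many of these transcripts without infection.

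The libraries held 12456212 counts (wild type label) and 12435916 counts (P2x7-KO label). P2rx7 itself went against the label, with 229 counts in the wild-type-labelled library and 543 in the P2x7-KO-labelled one, so each library is called here by what its label says. The sort genes were present in both, Kit at 559 and 861 counts and Itgam, which encodes a chain of Mac1, at 2274 and 6910. Levels are given as CPM, counts per 1000000 after TMM scaling, with exact 95% Poisson intervals. A ratio is the P2x7-KO-labelled library over the wild-type-labelled one, with an exact 95% counting interval. Reads are not independent molecules, and these intervals cover counting error only. A gene is called when its ratio is at least 2-fold in either direction and its interval leaves out equality. It must also have at least 20 counts over both libraries. By this rule P2rx7 was called higher (2.27-fold, 1.94 to 2.66), though under 2-fold once transcript length and GC content were adjusted for. The sort gene Itgam was also higher (2.90-fold, 2.77 to 3.05), and Kit was not called (1.47, 1.32 to 1.64).

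Most members were expressed at low levels, and the few that were 2-fold apart lay mostly above equality. Of 39 members, 28 had at least 20 counts, 11 had fewer and 3 of these had none in either library. Of the 28, 5 were at least 2-fold higher in the P2x7-KO-labelled library (Ifih1, Mx1, Rsad2, Samhd1 and Parp14), where 10.8% of all 13363 genes with at least 20 counts were. Bst2 alone was at least 2-fold lower, beside 8.95% of all genes. Parp14 and Bst2 were under 2-fold once transcript length and GC content were adjusted for. The remaining 22 were neither, and over all genes 19.8% were at least 2-fold apart in either direction. At 5 and 1 of 28, these are shares of 17.9% and 3.57%, and with so few members each count rests on a handful of genes. The interval lay wholly above equality for 14 members (35.6% of all genes did) and wholly below for 6 (34.7% of all genes). It included equality for the other 8 (29.8% of all genes). The median log2 ratio was 0.31, against 0.0050 over all genes, with quartiles at -0.41 and 0.79.

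**Figure D1:**
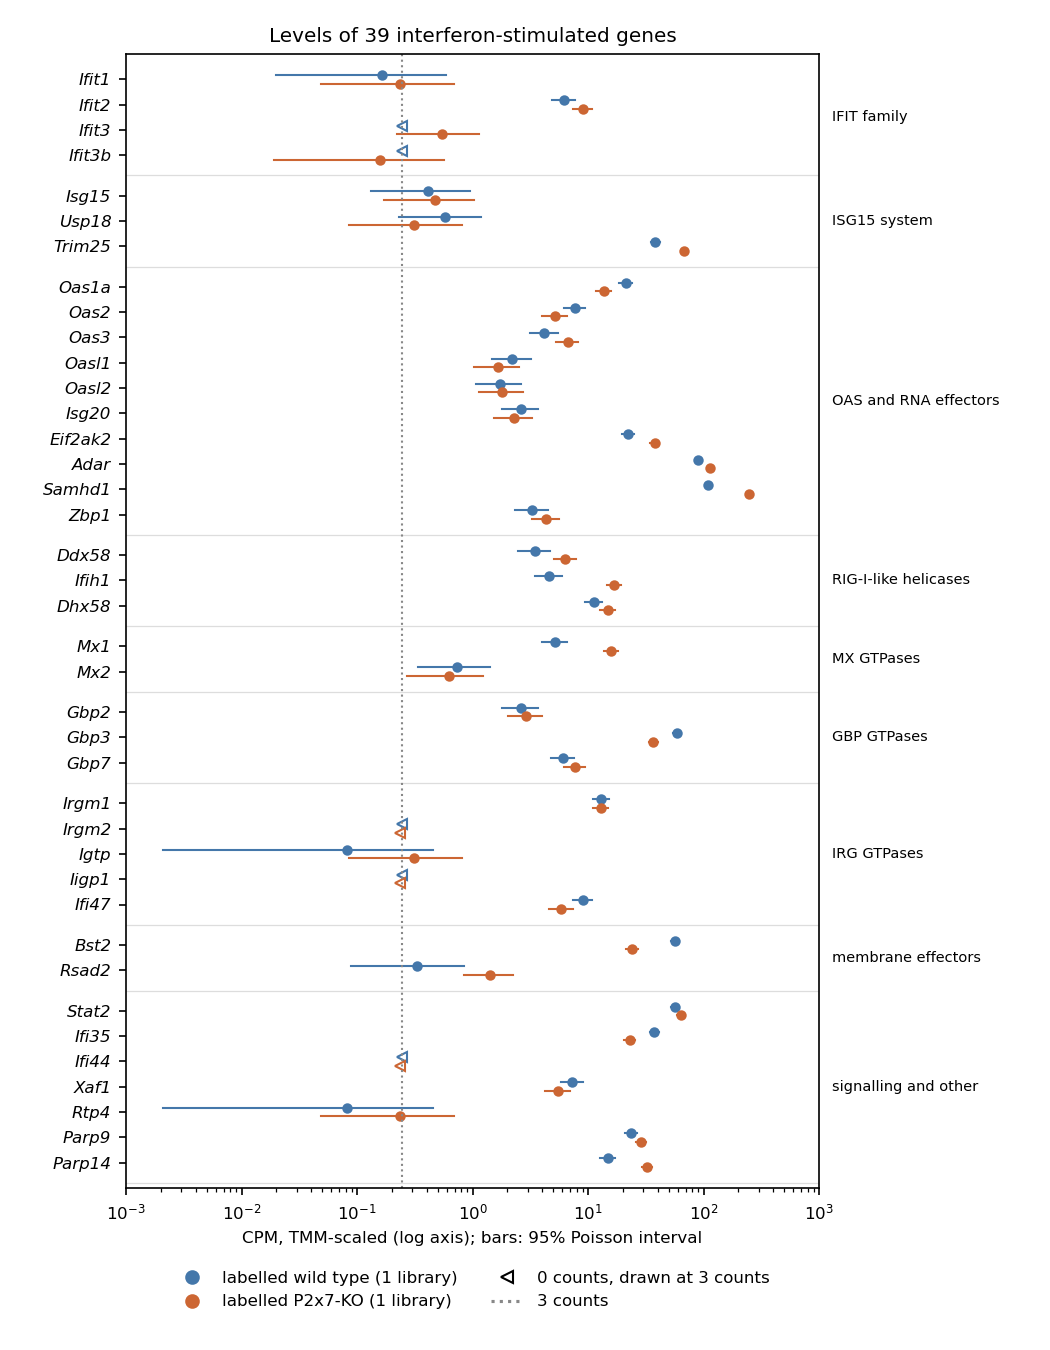
Level of each of the 39 members in CPM on a log axis, grouped by role, with 1 point per library and bars for the 95% Poisson interval; open triangles mark 0 counts and stand at 3 counts. Samhd1 and Adar lie highest, at 108 and 88.9 CPM in the wild-type-labelled library, while Ifi44, Iigp1 and Irgm2 have no count in either library.

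Summed over the 39 members, the counts were 7543 in the wild-type-labelled library and 10358 in the P2x7-KO-labelled one, a scaled ratio of 1.31 (1.27 to 1.35). Samhd1 made up 17.5% of that sum in the former and 30.4% in the latter. Without it the ratio was 1.11 (1.07 to 1.14), so 1 gene carried most of the difference in the sum. Per kb of the longest annotated transcript, which allows genes to be set side by side, Bst2 stood highest in the wild-type-labelled library at 71.8 CPM per kb. Samhd1 (27.6) and Ifi35 (27.5) followed, then Gbp3 at 21.9. In the other library the order was led by Samhd1 at 62.9 CPM per kb, with Bst2 at 30.3.

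Promoter sequence was not part of the rule for the list, and many members share an element there. RefSeq promoter windows (GRCm38.p6, 250 bases before to 50 after the start) were given for 29 members. The ISRE was searched as GAAA, any 2 bases and GAAA, and the GAS as TTC, any 3 bases and GAA, on both strands, with overlapping matches allowed and either motif free to overlap the other. An ISRE match was present for 18 of the 29 members (62.1%), against 3.99% of 27025 genes with a window and 3.44% of 32851 windows. A GAS match was present for 11 of 29 (37.9%), against 9.55% of genes and 8.30% of windows. By level, 6 of 7 members with fewer than 20 counts held an ISRE match, as did 9 of 18 with 20 or more that were not called. Among called members with a window, Ifih1, Rsad2 and Bst2 held one and Samhd1 did not. The Ifih1 match did not lie wholly before the start, nor did those of Ddx58 and Eif2ak2, which were not called. A match describes letters in the window and not a bound site.

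The 60-base stretches printed here, 5′ to 3′ on the gene's strand, have the ISRE matches in capitals. Rsad2 and Bst2 are the called members with a match before the start, one higher and one lower. Isg15 and Ifit1 stand for textbook ISRE genes that were almost silent in both libraries, and Oas1a and Oas3 for neighbours that differed in direction. The last 4 were chosen after their values were seen.
Rsad2, chr12:26456538-26456597, minus strand, 110 bases from match to start: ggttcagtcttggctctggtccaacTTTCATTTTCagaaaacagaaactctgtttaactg
Bst2, chr8:71537562-71537621, minus strand, 114 bases from the nearer match to start: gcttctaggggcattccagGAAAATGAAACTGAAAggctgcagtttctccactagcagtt
Isg15, chr4:156200850-156200909, minus strand, 56 bases from the nearest match to start: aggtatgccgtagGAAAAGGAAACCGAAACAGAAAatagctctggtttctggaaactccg
Ifit1, chr19:34640779-34640838, plus strand, 75 bases from the nearer match to start: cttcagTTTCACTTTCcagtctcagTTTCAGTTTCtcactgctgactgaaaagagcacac
Oas1a, chr5:120907526-120907585, minus strand, 4 bases from the nearer match to start: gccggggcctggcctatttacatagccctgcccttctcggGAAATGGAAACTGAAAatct
Oas3, chr5:120777700-120777759, minus strand, 65 bases from match to start: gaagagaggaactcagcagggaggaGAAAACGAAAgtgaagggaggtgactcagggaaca
The matches in Rsad2 and Ifit1 lie on the opposite strand and so read TTTC, 2 bases and TTTC. Isg15 holds 3 overlapping matches, Bst2 and Oas1a 2 overlapping ones, and Ifit1 2 separate ones. With these matches, Isg15 had 5 and 6 counts in the 2 libraries and Oas1a had 258 and 174.

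The 3 helicase genes that sense foreign RNA all lay above equality, and Ifih1 was past 2-fold. Ifih1 (chromosome 2, 62595798 to 62646255, mm10) encodes MDA5, a helicase that recognises long double-stranded RNA. It had 56 and 215 counts, or 4.60 CPM (3.48 to 5.98) and 16.9 CPM (14.7 to 19.3), a 3.67-fold ratio (2.72 to 5.01). Its intervals in the 2 libraries did not overlap. Ddx58 encodes RIG-I, which recognises RNA with a 5′ triphosphate, and stood at 42 and 81 counts, a ratio of 1.84 (1.25 to 2.74) that was under 2-fold. Dhx58 encodes LGP2, a helicase without signalling domains that modulates the other two, and stood at 136 and 188 counts (1.32, 1.05 to 1.66). The intervals of all 3 lay above equality, as did those of 35.6% of all genes. Of these helicase genes only Ifih1 was called higher, where 10.8% of all genes were.

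Of the MX genes, which encode dynamin-like GTPases that trap viral nucleocapsids, Mx1 was higher. It lies on chromosome 16 from 97447035 to 97462907 and had 63 and 201 counts, 5.18 CPM (3.98 to 6.63) and 15.8 CPM (13.7 to 18.1). The ratio was 3.05-fold (2.29 to 4.11). Laboratory strains such as C57BL/6 are known for a defective Mx1 allele, and the table types both MX genes as miscRNA and not as mRNA. Mx2, further along the same chromosome, had 9 and 8 counts, too few to call.

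Rsad2 and Bst2 encode membrane-bound antiviral proteins, and they went in opposite directions. Rsad2 encodes viperin, an enzyme of the endoplasmic reticulum and lipid droplets that makes a chain-terminating nucleotide. It had 4 and 18 counts, 0.329 CPM (0.0896 to 0.842) and 1.41 CPM (0.838 to 2.23), a ratio of 4.30 (1.42 to 17.5). This is the widest interval among the called members, since Rsad2 had 22 counts in all. Bst2 encodes tetherin, which holds budding virions at the cell surface. It had 692 and 306 counts, 56.9 CPM (52.7 to 61.3) and 24.03 CPM (21.4 to 26.9), and was 2.37-fold lower (2.07 to 2.72) in the P2x7-KO-labelled library. After adjustment for length and GC content its log2 ratio of -1.24 was -0.56, under 2-fold. Bst2 is also a surface marker of plasmacytoid dendritic cells. Of 5 other markers of those cells, Siglech had 3 and 25 counts, Cox6a2 93 and 7, Ccr9 0 and 1, Ly6d 0 and 1, and Klk1 none. They summed to 7.89 and 2.67 CPM, and their part in the Bst2 value was not tested.

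Among enzymes that act on RNA, DNA precursors or translation, the 3 with the most counts lay above equality and Samhd1 was past 2-fold. In the same role group Oas1a came next by counts and lay below equality (0.644, 0.528 to 0.784), as given below with its family. Samhd1 (chromosome 2, 157097533 to 157135265) encodes a hydrolase that depletes deoxynucleotides and restricts retroviruses in myeloid cells. It was the most abundant member in counts, at 1318 and 3147, or 108 CPM (103 to 114) and 247 CPM (239 to 256), a 2.28-fold ratio (2.14 to 2.43). Eif2ak2 encodes PKR, a kinase that halts translation on double-stranded RNA, and stood at 270 and 484 counts (1.71, 1.47 to 1.995). Adar encodes an adenosine deaminase that edits double-stranded RNA, and stood at 1081 and 1460 counts (1.29, 1.19 to 1.40). Both intervals lay above equality and under 2-fold. Zbp1, whose product binds Z-form nucleic acid and starts necroptosis, had 40 and 55 counts (1.31, 0.858 to 2.03). Isg20, which encodes an exonuclease for single-stranded RNA, had 32 and 29 counts (0.866, 0.505 to 1.48). Neither interval excluded equality.

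The OAS family did not move together. OAS enzymes make short 2′-5′-linked oligoadenylates that activate RNase L, and their genes lie in a cluster on chromosome 5. Oas1a stood at 258 and 174 counts, 1.55-fold lower (1.28 to 1.89), and Oas2 at 94 and 66, 1.49-fold lower (1.08 to 2.07). Oas3, between them on the chromosome from 120753098 to 120777661, stood at 51 and 85 counts, a ratio of 1.59 (1.11 to 2.30). The intervals of Oas1a and Oas2 thus lay below equality and that of Oas3 above, with none of them called. The related Oasl1, an inhibitor of translation of the factor IRF7, had 27 and 21 counts, and Oasl2 had 21 and 23, with intervals that included equality. The Oas1a transcript is 97.6% identical to Oas1g over 98.7% of its length, so reads could be split between them. Oas1g had 34 and 6 counts, also lower in the P2x7-KO-labelled library.

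The IFIT and ISG15 genes, which are among the most strongly inducible members, were near the detection limit in both libraries. IFIT proteins bind viral RNA that lacks normal cap methylation, and their genes are neighbours on chromosome 19. Ifit1 had 2 and 3 counts, Ifit3b 0 and 2, and Ifit3 0 and 7. Set against 3 counts in the wild-type-labelled library, the 7 counts of Ifit3 give a ratio of 2.23. This is not a lower bound, since the counting interval of Ifit3 reaches down to 1.38-fold. The gene had fewer than 20 counts and was not called. Ifit3 and Ifit3b are 97.8% identical over 97.4% of the Ifit3 transcript, so their counts cannot be cleanly separated. Ifit2, the exception in the family, had 75 and 115 counts, 6.17 CPM (4.85 to 7.73) and 9.03 CPM (7.46 to 10.8), a ratio of 1.46 (1.09 to 1.99).

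Isg15, a ubiquitin-like protein that is joined to other proteins, had 5 and 6 counts. Usp18, which removes Isg15 and also dampens the type I receptor, had 7 and 4. At these depths the Isg15 interval runs from 0.291 to 4.75 and that of Usp18 from 0.117 to 2.15, so a difference of 2-fold in either direction was not detectable. A transcript of another gene is 95.2% identical to Isg15 over 63.8% of its length and could hold some of its reads. Trim25, a ubiquitin ligase that acts on RIG-I, was far more abundant, at 466 and 862 counts (1.77, 1.58 to 1.98).

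**Figure D2:**
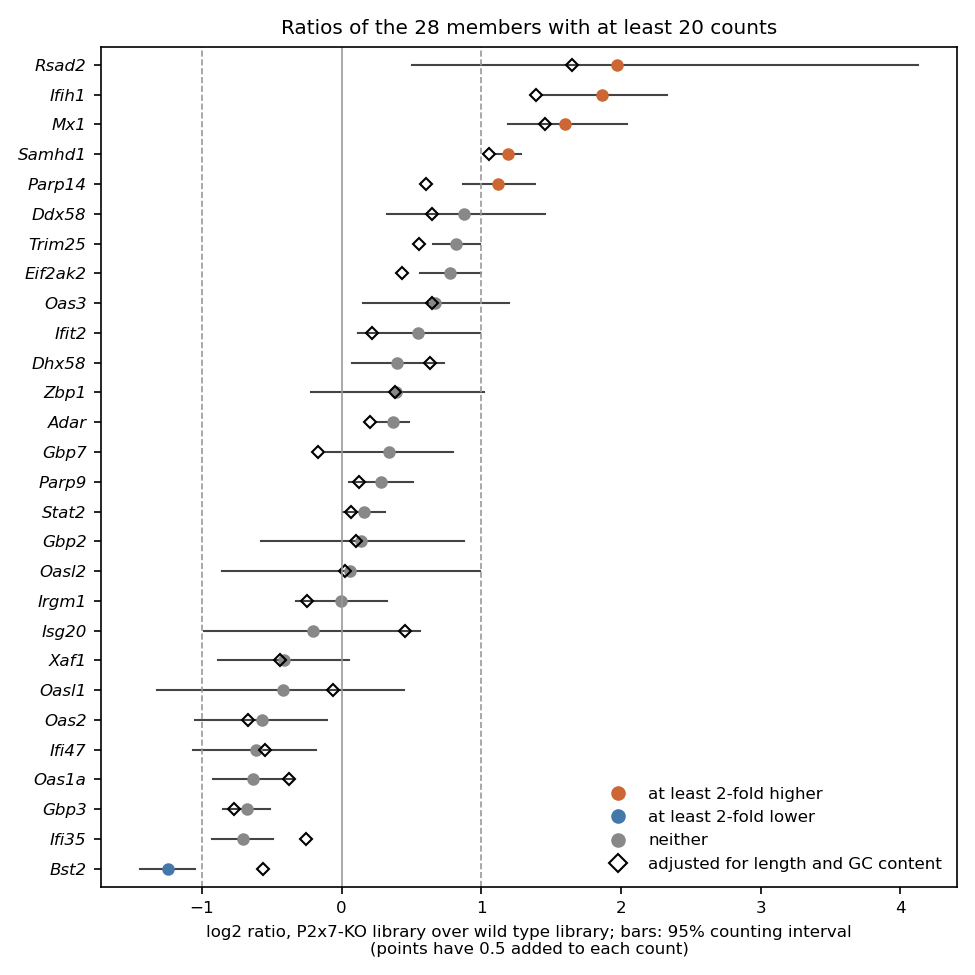
log2 ratio of the P2x7-KO-labelled over the wild-type-labelled library for the 28 members with at least 20 counts, with 95% counting intervals, dashed lines at 2-fold and open diamonds for the value adjusted for length and GC content. Rsad2, Ifih1, Mx1 and Samhd1 stay past 2-fold as diamonds, while Parp14 and Bst2 come inside the dashed lines.

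Many GTPases of the GBP and IRG families answer mainly to interferon gamma. None of the 3 GBP and 2 IRG members with at least 20 counts was called, where 19.8% of all genes were at least 2-fold apart. Gbp9, which is not a member, was called higher, at 6 and 42 counts (6.69-fold, 2.83 to 19.2). The remaining GBP genes in the list of other inducible genes had fewer than 20 counts. GBP proteins coat and disrupt the vacuoles of intracellular bacteria and parasites. Gbp3 stood at 715 and 467 counts, 58.8 CPM (54.5 to 63.2) and 36.7 CPM (33.4 to 40.2), 1.60-fold lower (1.42 to 1.80) in the P2x7-KO-labelled library. Its neighbours on chromosome 3 included equality in their intervals, Gbp2 at 32 and 37 counts and Gbp7 at 74 and 98. IRG proteins act on the same vacuoles. Irgm1, a regulatory member, had 157 and 164 counts, a ratio of 0.998 (0.797 to 1.25), and its log2 value changed sign between scalings. Ifi47 had 110 and 75 counts and was 1.54-fold lower (1.13 to 2.09). Igtp had 1 and 4 counts. Irgm2 and Iigp1 had none in either library, and the limit taken for a gene at 0, 3 counts, equals 0.247 and 0.236 CPM. Exons of Igtp and Irgm2 overlap by 162 bases on the same strand, and reads there may have been left out or split.

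Signalling and other induced proteins ranged from Parp14, which was higher, to Ifi35, which was lower but under 2-fold. Parp14, an ADP-ribosyltransferase gene on chromosome 16 from 35832874 to 35871544, had 181 and 413 counts, 14.9 CPM (12.8 to 17.2) and 32.4 CPM (29.4 to 35.7). This is a 2.18-fold ratio (1.83 to 2.61). With length and GC content adjusted for, its log2 ratio was 0.60, under 2-fold. Its neighbour Parp9, whose product works with the ubiquitin ligase DTX3L, had 289 and 368 counts (1.22, 1.04 to 1.42). Exons of Parp9 and Dtx3l overlap by 458 bases on opposite strands, and Dtx3l had 469 and 791 counts. Stat2, the signal transducer of the type I pathway, had 689 and 807 counts (1.12, 1.01 to 1.24), a small difference. Ifi35, a partner of NMI, stood at 456 and 292 counts, 1.63-fold lower (1.41 to 1.90). Xaf1, an antagonist of the apoptosis inhibitor XIAP, had 89 and 70 counts (0.751, 0.541 to 1.04). Rtp4 had 1 and 3 counts, and Ifi44 had none.

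Transcript length and GC content moved with the ratios across the table, and their part was taken up in an adjusted value for each gene. The 28 members had a median longest transcript of 3683 bases, against 3094.5 over all genes. After a trend on both properties was removed, 4 members were at least 2-fold higher (8.44% of 12374 genes were) and 0 lower (5.34% of genes). The median log2 ratio was then 0.16, against 0.31 before. Parp14 came under the threshold, from a log2 ratio of 1.12 to 0.60 (0.35 to 0.86), with a transcript of 7417 bases. Bst2 did as well, from -1.24 to -0.56 (-0.76 to -0.37), with one of 792 bases. Ifih1 went from 1.87 to 1.39 (0.97 to 1.85), Mx1 from 1.60 to 1.46 (1.05 to 1.90) and Samhd1 from 1.19 to 1.05 (0.96 to 1.15). Rsad2 went from 1.97 to 1.65 (0.18 to 3.80).

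**Figure D3:**
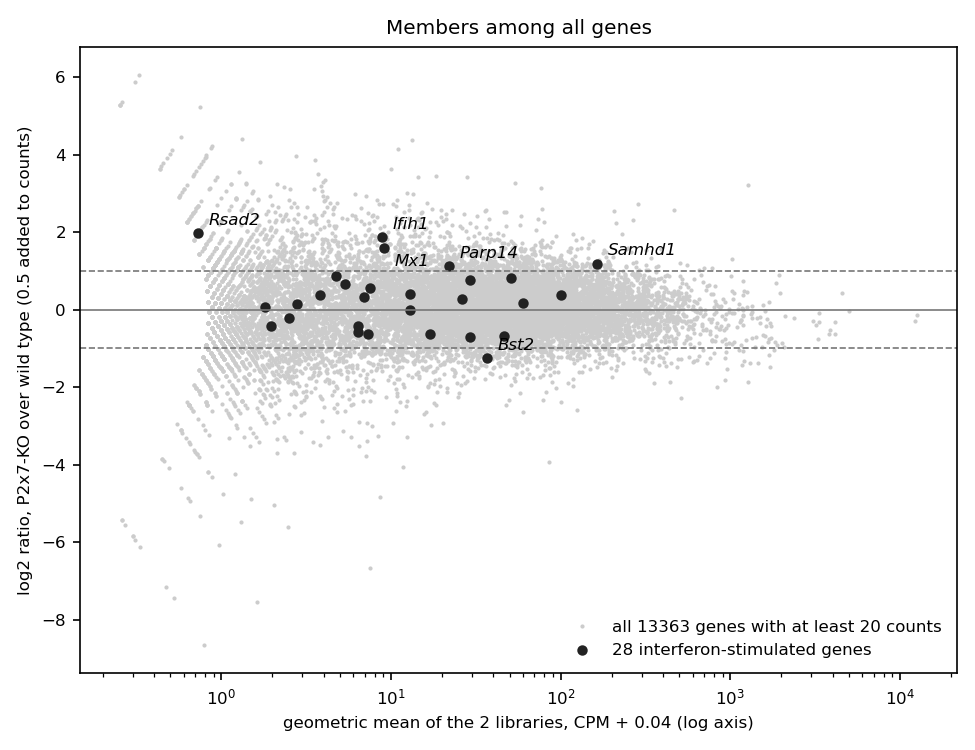
log2 ratio against mean level on a log axis for all 13363 genes with at least 20 counts (grey) and the 28 members (black), with the 6 called members named and dashed lines at 2-fold. The members lie within the cloud of all genes at their level.

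Most monocyte markers were higher in the same library. Of 10 monocyte and macrophage markers, 8 were at least 2-fold higher and 0 lower, beside 10.8% and 8.95% of all genes. These shares of all genes stand beside each marker count below as well. The 8 were Csf1r, Ccr2, Lyz2, Fn1, F13a1, Cx3cr1, Mpeg1 and Ctss. Adgre1 was under 2-fold (1.35, 1.24 to 1.46). Ly6c2, at 12099 and 12223 counts, had an interval below equality (0.965, 0.941 to 0.990). All 10 summed to 2226 and 5131 CPM, with none at 0. Of 8 neutrophil markers, 7 had at least 20 counts, 1 higher and 1 lower, with sums of 3385 and 2861 CPM. Of 8 T and NK cell markers, 2 had at least 20 counts, 1 higher and 1 lower. All 8 summed to 26.1 and 12.4 CPM, with Ncr1 at 0 in both. Nkg7 (307 and 105 counts) was the lower one and made up most of both sums. The other markers with counts had more in the P2x7-KO-labelled library, each at 19 counts or fewer. B cell markers summed to 56.4 and 54.3 CPM over 5 genes, nearly all of it Cd79b. Of 4 plasma cell markers, 3 had at least 20 counts and 2 were higher, Jchain at 5 and 55 counts and Igkc at 20 and 122. Of 7 dendritic cell and MHC class II markers, 2 had at least 20 counts and Cd74 was higher, at 97 and 288 counts, with Xcr1 and H2-Aa at 0 in both. Mast cell and basophil markers went the other way, with 2 lower of 4 that had at least 20 counts, sums of 379 and 40.1 CPM and Fcer1a at 0 in both. Erythroid markers summed to 0.904 and 8.72 CPM. Fewer cells of a type and less RNA per cell cannot be told apart in such bulk libraries, and the part of these cells in the values of Samhd1, Ifih1 and the other members was not tested.

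At the start of the pathway, ligand transcripts were almost absent. All 9 receptor and kinase genes lay above equality, as did 6712 of all 13363 genes. Of 21 interferon genes, 20 had no count in either library, and Ifnz had 1 count in the P2x7-KO-labelled one. Each receptor and kinase gene had at least 20 counts, with 0 called, 8 intervals above equality (35.6% of all genes) and a median log2 ratio of 0.34. Ifngr1 (1.04), Tyk2 (1.08) and Il10rb (1.10) were close to equality. Adjusted for length alone, the log2 ratio of Tyk2 was -0.11. The type I receptor gene Ifnar1 stood at 1105 and 1672 counts (1.45, 1.34 to 1.56) and Ifnar2 at 1965 and 2605 (1.27, 1.19 to 1.34). The kinase gene Jak1 stood at 1498 and 2684 counts (1.71, 1.61 to 1.82). Of 8 transcription factors, 0 were called, 4 intervals lay above equality (35.6% of all genes) and 2 below (34.7% of all genes). Irf5 had 1457 and 2811 counts (1.84, 1.73 to 1.96). Adjusted for length and GC content, its log2 ratio was 1.21, past 2-fold. Irf3 had 1728 and 1031 counts and was 1.75-fold lower (1.62 to 1.90). Irf9, which encodes the DNA-binding partner of STAT2, had 411 and 486 counts (1.13, 0.989 to 1.29). Irf7, a factor that amplifies type I interferon production, had 155 and 168 (1.04, 0.827 to 1.30). Both intervals included equality.

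Of 9 inhibitors of the pathway, 1 was called higher and 1 lower. That is 11.1% each, near the shares of all genes (10.8% higher and 8.95% lower). The 2 genes, Socs3 and Socs1, encode proteins that block JAK kinases and are themselves induced by cytokines. Socs1 had 185 and 70 counts and was 2.77-fold lower (2.09 to 3.70), while Socs3 had 7 and 19, a ratio of 2.59 (1.04 to 7.30). Of 13 sensors and adaptors upstream of interferon, 12 had at least 20 counts, with 4 higher (10.8% of all genes), 0 lower (8.95% of all genes) and a median of 0.50. The 4 were Toll-like receptor genes: Tlr7, a sensor of single-stranded RNA, at 32 and 208 counts (6.21-fold, 4.27 to 9.31), Tlr8 (5.37-fold), Tlr9 (4.24-fold) and Tlr4 (3.40-fold). The adaptor genes Mavs, through which RIG-I and MDA5 signal, and Tmem173, which encodes STING, had ratios of 0.848 (0.757 to 0.949) and 0.908 (0.825 to 0.999).

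Among 98 other interferon-inducible genes, 94 were in the table and 69 had at least 20 counts. Of these, 19 were higher, a share of 27.5% against 10.8% of all genes. This list, like the others here, was chosen with earlier results of these data known, so the share is not independent of them. In the other direction 6 passed, or 8.70% against 8.95% of all genes, and the list's median was 0.27. By the nearer bound of the interval, Pydc4 (35 and 768 counts, 20.96-fold), Ifi203 (22 and 141, 6.12-fold), Gvin1 (2 and 31) and Slfn2 (588 and 2310, 3.75-fold) led those that were higher. Ifi203 and Pydc4 belong to the PYHIN family, and Slfn2 controls quiescence of immune cells. The lymphocyte activation gene Cd69 (2138 and 448 counts, 4.996-fold lower), Oas1g, Ly6e (31087 and 14370, 2.26-fold lower) and the immunoproteasome gene Psmb9 (53 and 16, 3.47-fold lower) led those that were lower. The spread of this list was thus wide in both directions, and its summed counts were lower in the P2x7-KO-labelled library, at a ratio of 0.739 (0.731 to 0.746), while those of the 39 members were higher. Ly6e and B2m (19191 and 10659 counts) were its most abundant genes, and their lower counts set the direction of this sum (81708 and 63188 counts). By gene, 46 of the 69 lay above equality and 23 below.

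**Figure D4:**
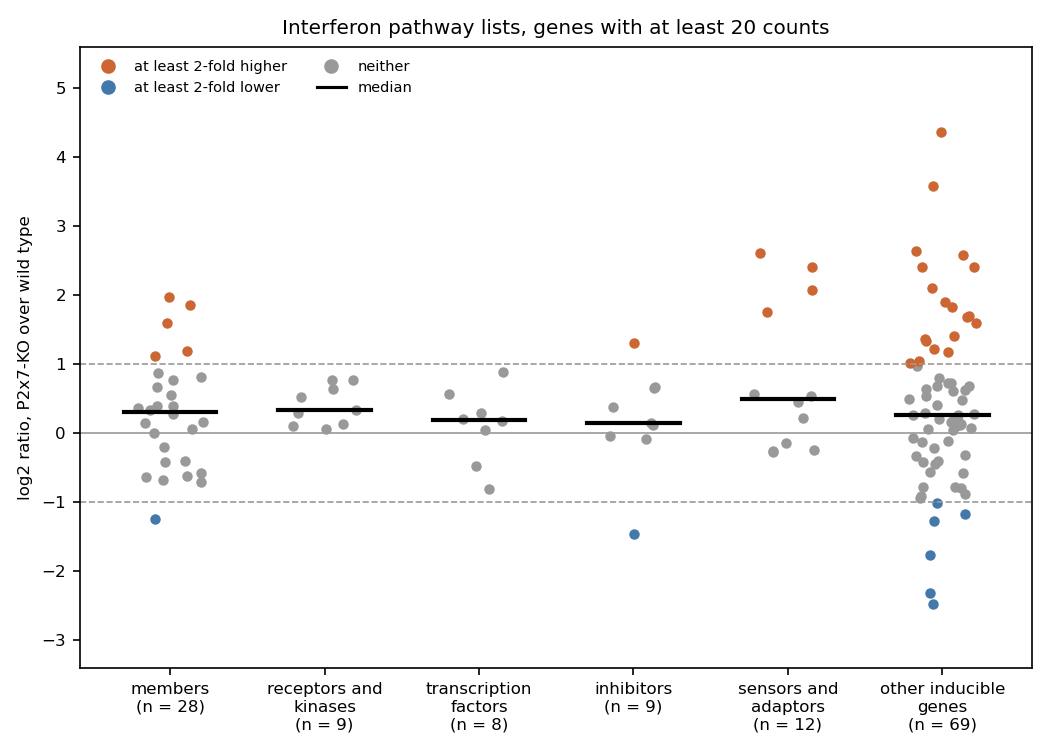
log2 ratio of each gene with at least 20 counts in the members' list and in 5 further lists of the interferon pathway, with 1 point per gene, a bar at the median and dashed lines at 2-fold. Medians lie between 0.14 and 0.50, and called genes lie on both sides in the members, the inhibitors and the other inducible genes.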

How the data were processed

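The authors deposited raw counts per gene for 2 libraries of sorted leukaemia cells. Per the submitters' processing notes, HISAT2 2.0.4 and mm10 were used. How reads were assigned to genes (program, annotation, strand, reads that match more than once) is not stated in the labels used here. This bears on genes with near-identical or overlapping neighbours. Both value columns were used (0 left out).

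From the deposited counts, scaling factors were computed over all genes with TMM in edgeR 4.0.16 (R 4.3.3). Ratios carry Clopper-Pearson and levels Poisson intervals at 95% (SciPy 1.17.1). log2 ratios have 0.5 added to each count, and a gene at 0 is set against 3 counts. No test was possible with 1 library per group. The adjustment removed a cubic trend on log2 length and on GC content of the longest GENCODE M21 transcript, available for 92.6% of genes with at least 20 counts. Similar transcripts were sought with BLAST at 95% identity over at least 50% of the length. The interval and trend code was tested on simulated data.

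Members and lists were chosen with earlier results of these data known. All members are named. Some genes of the other lists are counted in them but not reported here by name. From other lists, up to 4 called genes per direction were named by the nearer interval bound, and further genes there were named after their values were seen. Alternatives were total count, DESeq2 1.42.0 median-of-ratios and upper quartile scaling, other count minimums, a 1.5-fold threshold, and adjustment for length alone or with GC content.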

Additional observations from a re-analysis of the deposited data

How the results depend on the processing

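The count of members at least 2-fold higher (5) was 5 under the total count, median-of-ratios and upper quartile scalings. The shares of all genes there were 12.3%, 11.6% and 10.2%. The member count was 6 of 36 with no count minimum (8.27% of all genes) and 4 of 25 with a minimum of 50 counts (10.1%). After adjustment for length it was 4 (8.85% of all genes), and with GC content added it was 4 (8.44%). With a 1.5-fold threshold it was 9 (21.1% of all genes). The count at least 2-fold lower (1) was 0 when adjusted for length (5.67% of all genes) and 0 with GC content added (5.34%). With a 1.5-fold threshold it was 5 (18.9% of all genes). It was 1 under the remaining settings, where 6.81% to 9.53% of all genes were lower. The median log2 ratio ranged from 0.16 (length and GC content) to 0.38 (total count). The scalings moved all log2 ratios by -0.03 to 0.07, and among members with at least 20 counts only Irgm1 changed sign between them. Of 34 members with counts in the wild-type-labelled library, 9 left their counting interval after adjustment for length and GC content. No paired analysis was possible because each group holds 1 library. With few reads, 11 members were too shallow to call.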
